A study of Mus musculus with 20 samples.

Results

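The genes measured here encode the amyloid precursor protein (*App*) and its relative *Aplp2*, the proteases that cut them, and a protease that degrades the peptide released. The 9 genes were chosen by symbol among the 55487 genes of the count table. RNA-seq libraries came from 20 cultures of BV-2, an immortalized mouse microglial cell line, in 4 groups of 5. Control (young) BV-2 microglia had a low passage number, whereas aged BV-2 microglia had been kept in long-term culture. Cultures of each age were left untreated or exposed for 6 h to 100 ng/ml lipopolysaccharide (LPS), a bacterial ligand of Toll-like receptor 4. The aged cells are therefore a model of culture age in 1 cell line and not of the age of an animal. The labels give the replicate numbers as batches, and a batch comprised 1 culture per group.

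The amyloid precursor protein is a membrane protein that can be cut along competing routes. In the non-amyloidogenic route an α-secretase, mainly the metalloprotease ADAM10, sheds the ectodomain within the amyloid-β sequence. In the amyloidogenic route BACE1, the β-secretase, cuts first, and γ-secretase then releases amyloid-β. γ-Secretase is a complex of a catalytic subunit (such as that encoded by *Psen2*), nicastrin (*Ncstn*), an APH-1 protein (*Aph1a*) and PEN-2 (*Psenen*). Insulin-degrading enzyme (*Ide*) is a cytosolic and secreted protease that degrades monomeric amyloid-β. Microglia are known in the brain for taking up and degrading amyloid-β rather than as its main source.

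In the mouse genome GRCm38, *App* (ENSMUSG00000022892) lies at chr16:84949685-85173766 on the minus strand. *Aplp2* (ENSMUSG00000031996) lies at chr9:31149557-31211815, minus, and *Adam10* (ENSMUSG00000054693) at chr9:70678997-70780229, plus. *Bace1* (ENSMUSG00000032086) is on the same chromosome at chr9:45838580-45864399, plus. *Ncstn* (ENSMUSG00000003458) lies at chr1:172066013-172082795 and *Psen2* (ENSMUSG00000010609) at chr1:180227004-180263438, both minus. *Aph1a* (ENSMUSG00000015750) is at chr3:95893969-95898288, plus, *Psenen* (ENSMUSG00000036835) at chr7:30561863-30563627, minus, and *Ide* (ENSMUSG00000056999) at chr19:37268743-37337852, minus. Some share exonic bases with a gene on the other strand. *Ncstn* shares 195 bases with *Copa*, *Psenen* 119 with *U2af1l4* and *Bace1* 975 with *Rnf214*. *Aph1a* shares 445 with *Car14*, which had no count in any library, and *App* 113 with *Gm49227*, which had 0 to 2 counts. The strand setting of the counting is not given in the sources used here, so the levels of these genes are uncertain to that extent.

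The sequences upstream of the start sites of *App*, *Aplp2* and *Adam10* are shown because *App* rose under LPS, whereas *Adam10*, and *Aplp2* in young cultures, fell. They are RefSeq sequences of GRCm38.p6, 5′ to 3′ on the strand of the gene, and end before the RefSeq and the GENCODE start. Capitals mark the GC box GGGCGG on either strand, and neighbouring matches may run together. The stretches are chr16:85173767-85173957 (minus) for *App*, chr9:31211849-31212098 (minus) for *Aplp2* and chr9:70678732-70678981 (plus) for *Adam10*.
App: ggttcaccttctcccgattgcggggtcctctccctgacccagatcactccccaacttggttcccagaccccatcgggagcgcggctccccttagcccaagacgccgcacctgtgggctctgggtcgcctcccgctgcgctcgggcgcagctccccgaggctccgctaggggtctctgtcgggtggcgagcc
Aplp2: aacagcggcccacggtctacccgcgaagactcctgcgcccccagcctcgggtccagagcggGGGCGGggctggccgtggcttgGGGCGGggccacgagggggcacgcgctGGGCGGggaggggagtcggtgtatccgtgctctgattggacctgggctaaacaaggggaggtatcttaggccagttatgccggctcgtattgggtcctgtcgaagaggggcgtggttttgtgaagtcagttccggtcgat
Adam10: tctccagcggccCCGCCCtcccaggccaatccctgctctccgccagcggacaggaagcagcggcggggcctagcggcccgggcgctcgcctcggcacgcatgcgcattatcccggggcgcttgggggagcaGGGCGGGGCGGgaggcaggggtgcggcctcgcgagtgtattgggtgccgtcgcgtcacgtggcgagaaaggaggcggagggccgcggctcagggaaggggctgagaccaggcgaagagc
These stretches are 69.6%, 66.4% and 74.0% G or C. The printed *App* stretch of 191 bases holds no GC box, and the 250 bases of *Aplp2* and of *Adam10* hold 3 each. Over the full RefSeq windows of 300 bases, the counts are 1, 4 and 3, and 35.7% of the 32851 windows of the genome hold at least 1. Among the other members, *Ncstn*, which rose under LPS, and *Ide*, which fell, had 0. *Aph1a* had 1, the 2 starts of *Psen2* had 4 and 0, and both starts of *Psenen* had 0. No window of a member held the TATA box TATAAA (13.6% of windows) or the AP-1 site TGACTCA (5.2%) on either strand. The E box CACGTG (7.15%) was in the windows of *Adam10* and of 1 of the 2 starts of *Psen2*, and CCAAT (37.4%) was in those of *Aplp2*, *Aph1a*, *Adam10*, *Ide* and 1 of the 2 starts of *Psenen*. The *Ide* window, both *Psen2* windows and the other *Psenen* window lie inside the gene as GENCODE draws it.

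Total counts ranged from 11371508 to 16829292 per library. Levels are CPM, counts divided by the library size after scaling by TMM, a method that assumes that most genes keep their level. A count of 3, taken as the floor of detection, corresponds to 0.178 to 0.264 CPM, for counting error only. The macrophage genes *Csf1r*, *Cd68* and *Spi1* were high in every library, and 10 of 10 microglia and macrophage markers passed the filter on low counts. The homeostatic microglial markers *Cx3cr1* and *P2ry12* were near the floor, with group means of 0.313 to 1.05 CPM and 0.0733 to 1.18 CPM. None of 6 neuronal, 4 astrocytic and 5 fibroblast and vessel markers passed the filter, and their summed levels reached at most 0.414, 0.747 and 1.33 CPM. Of 4 oligodendrocyte markers 1 passed, with a summed level of at most 1.78 CPM. The 6 LPS-response markers summed to 24.3 to 168 CPM in untreated and 2599 to 5944 CPM in LPS-treated cultures. As these are bulk samples, fewer cells with a transcript and less transcript per cell cannot be told apart.

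Of the 9 genes, 8 were expressed and tested, and *Bace1* was not. *Bace1* had 0, 0, 1, 0 and 1 counts in the young untreated and 0, 2, 1, 0 and 0 in the aged untreated libraries. Under LPS it had 0, 0, 0, 1 and 2 counts in young and 0 in each of the 5 aged libraries. No library exceeded the floor, so the β-secretase transcript was not detectable at this depth and no fold change is given. *Rnf214*, which overlaps it on the other strand, had 231 to 393 counts.

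Levels of different genes were compared per length, as TPM. These are raw counts divided by the length of the merged exons, then scaled to the same sum in each library. TMM scaling was not applied to them, so changes of a gene between groups can differ in size or sign from those in CPM. In young untreated cultures the order was *Aplp2* at 163 ± 22.2 TPM (SD, n = 5), *Adam10* at 144 ± 6.77, *Ide* at 138 ± 4.85, *Ncstn* at 117 ± 4.87, *Psen2* at 77.2 ± 4.38, *App* at 75.1 ± 5.66, *Psenen* at 53.6 ± 3.33 and *Aph1a* at 49.1 ± 2.06. *Aplp2*, *Adam10* and *Ide* overlapped in their libraries, as did *Psen2* with *App* and *Psenen* with *Aph1a*. In young LPS-treated cultures *Ncstn* at 138 ± 6.83 TPM and *App* at 129 ± 8.9 had the highest means, followed by *Aplp2* at 115 ± 11.2. *Adam10* and *Ide* had 81.4 ± 5.78 and 79.9 ± 8.67. *Ncstn*, *App* and *Aplp2* overlapped in their libraries, as did *Adam10* with *Ide*. By group means *App* thus went from rank 6 to rank 2 of the 9 genes in young and from 6 to 3 in aged cultures. With the longest transcript as the length, *App* went from rank 6 to 1 and from 6 to 2, and *Psen2* stood at rank 3 in untreated cultures. *Ncstn* was then at rank 3 and not 1 in LPS-treated cultures of both ages.

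**Figure D1:**
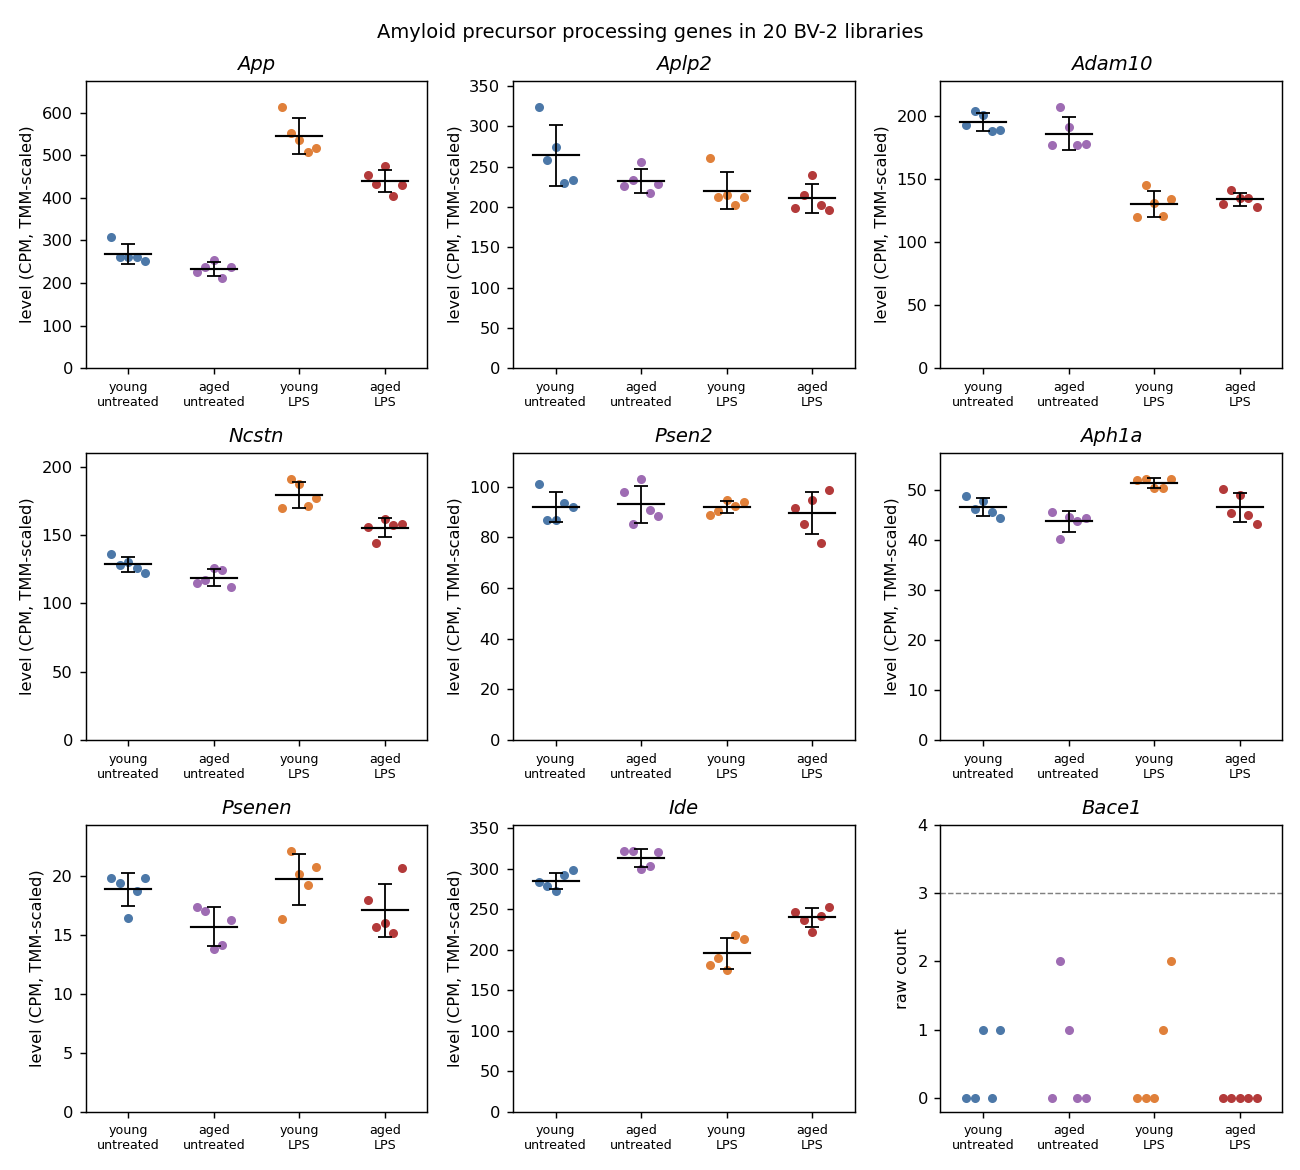
Level of each gene in every library by group (CPM scaled by TMM, with raw counts for *Bace1*), with points in order of the batch number, lines for the mean and bars for the SD of 5 cultures. *App* and *Ncstn* sit higher and *Adam10* and *Ide* lower in both LPS groups, and *Bace1* stays at or under 2 counts, below the dashed line at 3.

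LPS moved these genes in opposite directions. The substrate *App* and the γ-secretase subunit *Ncstn* rose, and the α-secretase *Adam10* and the amyloid-β protease *Ide* fell, in young and in aged cultures alike. In young cultures 6 of the 8 tested genes were differentially expressed (adjusted p below 0.05, edgeR's quasi-likelihood test), beside 64.6% of all 12799 genes tested. There were 3 that rose and 3 that fell, beside 31.2% and 33.5% of all genes. In aged cultures 4 of 8 were, beside 54.4%, with 2 in each direction beside 27.5% and 26.9%. The share of these genes that responded was therefore near that of the transcriptome in both ages.

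*App* was measured at 309, 260, 262, 260 and 251 CPM in young untreated cultures (batches 1 to 5) and at 613, 552, 536, 507 and 518 CPM after LPS. In aged cultures it had 225, 238, 255, 212 and 238 CPM untreated and 454, 433, 474, 404 and 430 CPM after LPS. Every LPS-treated culture was above every untreated one. The log2 fold change was 1.02 (SE 0.064, adjusted p = 3.07e-12) in young and 0.91 (SE 0.064, adjusted p = 4.4e-11) in aged cultures, a 2.03-fold and a 1.88-fold rise. Within batches the log2 difference was 0.96 to 1.09 in young and 0.86 to 1.01 in aged cultures, higher in 5 of 5 batches each.

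*Aplp2*, which encodes the closest relative of the precursor expressed here, did not follow *App*. It had 324, 258, 275, 230 and 233 CPM in young untreated and 261, 212, 215, 202 and 212 CPM in young LPS-treated cultures. Levels overlapped between the groups, but each batch was lower after LPS. *Aplp2* fell by 0.26 on the log2 scale (SE 0.084, adjusted p = 0.00958) in young cultures. In aged cultures it had 217 to 256 CPM untreated and 196 to 240 CPM after LPS, a log2 difference of -0.14 (95% interval -0.31 to 0.04, adjusted p = 0.17). With library sizes alone in place of TMM, which moves the median of all genes to -0.16 in aged cultures, this difference was -0.30 and was called (adjusted p = 0.00217).

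Among the secretases that shed the ectodomain, *Adam10* had 193, 204, 201, 188 and 189 CPM in young untreated cultures and 120, 145, 131, 121 and 134 CPM after LPS. In aged cultures it went from 177, 207, 191, 177 and 178 CPM to 130, 141, 135, 135 and 128 CPM. LPS-treated and untreated cultures did not overlap at either age. *Adam10* fell by 0.58 (SE 0.055, adjusted p = 3.39e-09) in young and by 0.47 (SE 0.054, adjusted p = 1.4e-07) in aged cultures on the log2 scale. *Adam17*, the other main α-secretase, known for releasing TNF, is not among the 9 genes and was singled out after its values were seen. It rose from 231 ± 9.76 to 593 ± 21 CPM (SD, n = 5) in young and from 217 ± 2.19 to 519 ± 7.82 CPM in aged cultures, by a log2 fold change of 1.36 (adjusted p = 4.03e-18) and 1.26 (adjusted p = 1.9e-17).

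Of the γ-secretase subunits among the 9 genes, nicastrin had the largest response. *Ncstn* had 136, 128, 130, 126 and 122 CPM in young untreated and 170, 191, 187, 171 and 177 CPM in young LPS-treated cultures. In aged cultures it went from 115, 117, 126, 124 and 112 CPM to 156, 144, 162, 157 and 158 CPM. The groups did not overlap, and *Ncstn* rose by a log2 fold change of 0.48 (SE 0.047, adjusted p = 6.52e-09) and 0.39 (SE 0.047, adjusted p = 3.24e-07).

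The other subunits stayed closer to their untreated level. *Aph1a* had 44.4 to 48.9 CPM in young untreated and 50.4 to 52.3 CPM in young LPS-treated cultures, a log2 difference of 0.14 (adjusted p = 0.0138) that turned to -0.08 with library sizes alone, where the median of all genes moved to -0.23. The call was also lost without a filter (adjusted p = 0.179) and without batch 5 (adjusted p = 0.0711). In aged cultures its log2 difference was 0.09 (95% interval -0.01 to 0.19), and -0.07 with library sizes alone. *Psen2* differed by 0.00 (-0.13 to 0.13) in young and by -0.05 (-0.18 to 0.08) in aged cultures. With library sizes alone *Psen2* was called lower, at -0.22 and -0.21, values close to the shift of all genes. *Psenen* had 16.3 to 22.1 CPM in young and 15.1 to 20.6 CPM in aged LPS-treated cultures, with log2 differences of 0.07 (-0.13 to 0.27) and 0.12 (-0.08 to 0.33) from untreated, which were -0.15 and -0.04 with library sizes alone.

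*Ide* had 283, 279, 272, 292 and 298 CPM in young untreated and 181, 190, 175, 218 and 213 CPM in young LPS-treated cultures. In aged cultures it went from 322, 322, 300, 303 and 320 CPM to 246, 237, 222, 241 and 253 CPM. The treated and untreated cultures did not overlap at either age. *Ide* fell by 0.54 (SE 0.055, adjusted p = 1.15e-08) in young and by 0.39 (SE 0.055, adjusted p = 3.05e-06) in aged cultures on the log2 scale. The LPS calls of *App*, *Ncstn*, *Adam10* and *Ide* in both ages held in every alternative setting run. With library sizes alone their log2 fold changes in young cultures were 0.80, 0.26, -0.80 and -0.76.

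**Figure D2:**
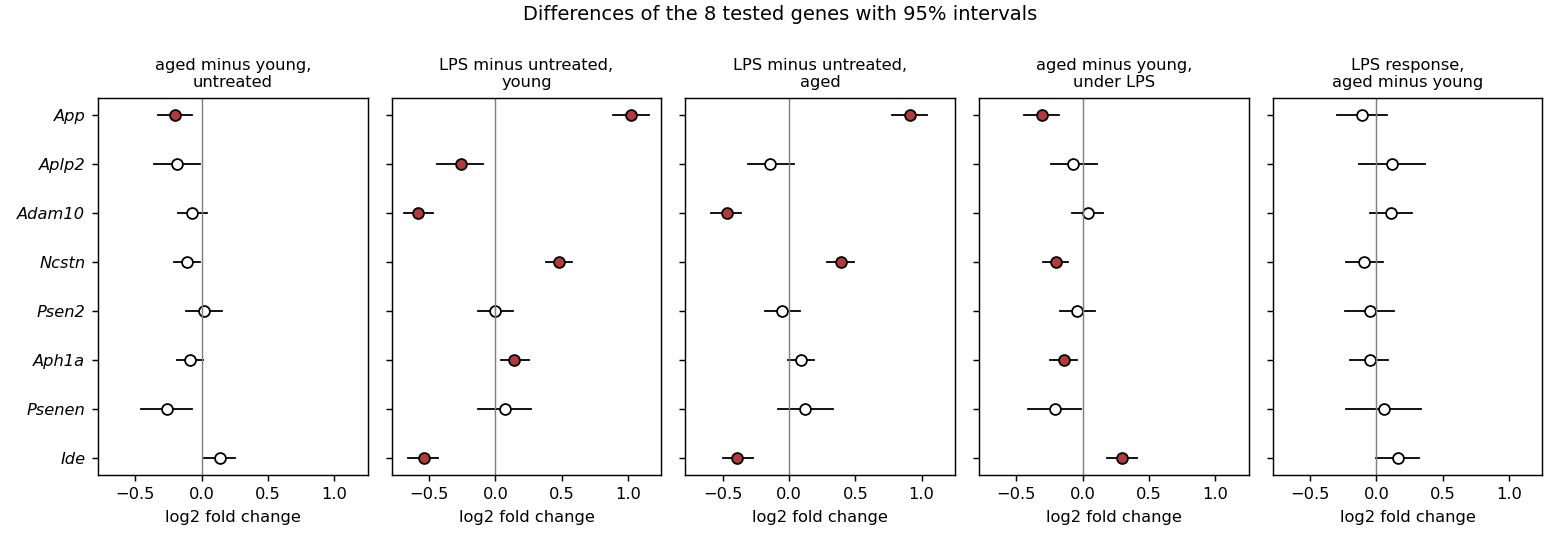
Log2 fold change (x axis) of the 8 tested genes in each of 5 comparisons, with 95% intervals and filled points where the adjusted p was below 0.05. *App* is at 1.02 and 0.91 in the LPS comparisons, and no point is filled in the panel on the difference of the LPS responses. *Aph1a* and *Psenen* under LPS lie above 0 here and below 0 with library sizes alone.

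Ratios of raw counts within a library do not depend on the scaling, and are given as a description. There were 1.02 ± 0.0784 (SD, n = 5) *App* counts per *Aplp2* count in young untreated and 1.01 ± 0.0261 in aged untreated cultures. After LPS the ratio was 2.48 ± 0.0912 in young and 2.09 ± 0.139 in aged cultures, without overlap between these groups. *App* counts per *Adam10* count went from 1.38 ± 0.13 to 4.21 ± 0.528 in young and from 1.26 ± 0.0842 to 3.29 ± 0.236 in aged cultures. *App* counts per *Ide* count went from 0.943 ± 0.0934 to 2.82 ± 0.441 and from 0.746 ± 0.0615 to 1.84 ± 0.181. After LPS *App* counts were thus higher relative to those of *Aplp2*, *Adam10* and *Ide* at both ages. Relative to *Adam17* they were lower, as the *App* counts per *Adam17* count went from 1.16 ± 0.0928 to 0.919 ± 0.0535 in young and from 1.08 ± 0.0711 to 0.847 ± 0.0516 in aged cultures. Between the α-secretases, *Adam17* counts per *Adam10* count went from 1.18 ± 0.0283 to 4.56 ± 0.31 in young and from 1.17 ± 0.0713 to 3.88 ± 0.116 in aged cultures. Within γ-secretase the *Ncstn* counts per *Aph1a* count went from 2.75 ± 0.0247 to 3.48 ± 0.191 in young and from 2.72 ± 0.184 to 3.35 ± 0.221 in aged cultures.

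**Figure D3:**
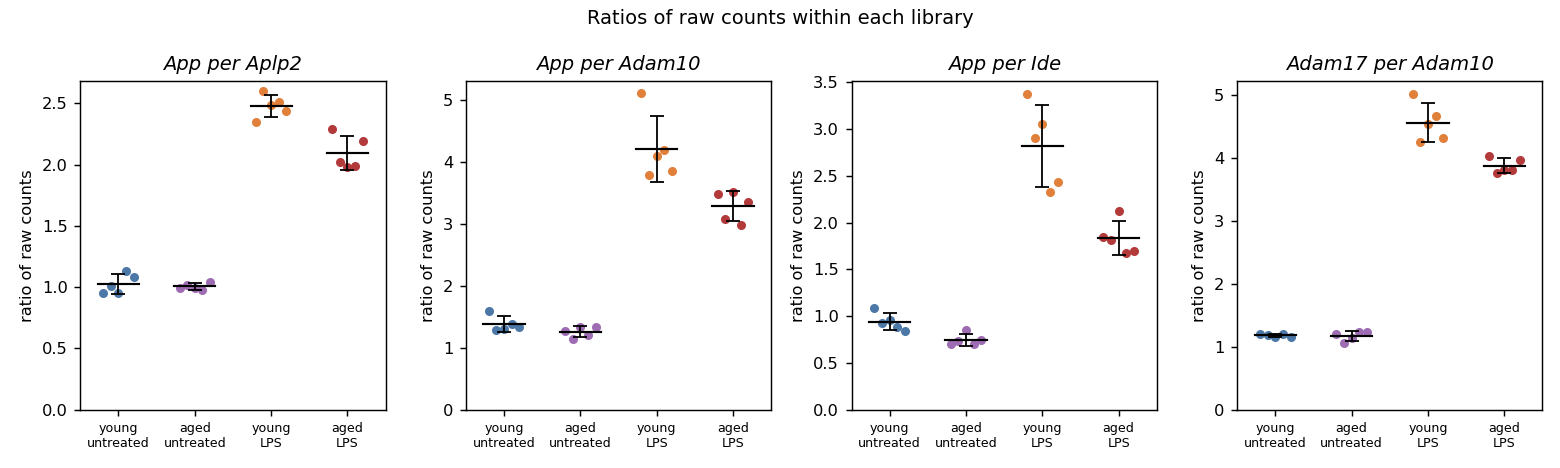
Ratio of raw counts of a pair of genes in each library by group, with points in order of the batch number, lines for the mean and bars for the SD of 5 cultures. The ratios are not corrected for transcript length, so their height compares groups and not genes. *App* per *Aplp2* is near 1 in untreated cultures and averages 2.48 in young and 2.09 in aged LPS-treated cultures.

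Fewer of these genes were called between the ages of untreated cultures than for LPS, as was so for all genes tested. Between aged and young untreated cultures 1 of the 8 tested genes was called, *App*, which was lower, beside 11.5% of all genes (3.71% higher and 7.81% lower). The aged levels of 212 to 255 CPM overlapped the young ones of 251 to 309 CPM, and the log2 fold change was -0.20 (SE 0.064, adjusted p = 0.0448). The call lay near the threshold. Without the young untreated culture of batch 1 the difference was -0.14 (adjusted p = 0.144), and without all of batch 1 it was -0.13 (adjusted p = 0.173). Without batches 2, 4 or 5 it was not called either, at -0.22, -0.18 and -0.23 with fewer libraries. The young untreated culture of batch 1 also had the highest level of *Acod1*, an LPS-induced gene of itaconate synthesis, at 121 CPM against 21 to 23.2 CPM in the other young untreated cultures, and its part in the difference was not tested.

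The share of all genes called with the batch number as a block is not given here, so the next count has no background beside it. With that block, 3 genes were called between aged and young untreated cultures. These were *App* (adjusted p = 0.0108), *Psenen*, which was lower at -0.26 (adjusted p = 0.0392, and 0.0767 without the block), and *Ide*, which was higher at 0.14 (adjusted p = 0.0312, and 0.108 without the block). *Ide* had 300 to 322 CPM in aged and 272 to 298 CPM in young untreated cultures, with no overlap and the aged culture higher in 5 of 5 batches. *Psenen* had 17.3, 17, 13.8, 14.1 and 16.2 CPM in aged and 19.8, 19.4, 16.4, 18.7 and 19.8 CPM in young untreated cultures, lower in 5 of 5 batches although the groups overlapped. The remaining genes differed by -0.19 (*Aplp2*, 95% interval -0.36 to -0.01, adjusted p = 0.162), -0.11 (*Ncstn*, -0.21 to -0.01, adjusted p = 0.139), -0.09 (*Aph1a*, -0.19 to 0.01), -0.07 (*Adam10*, -0.18 to 0.04) and 0.02 (*Psen2*, -0.12 to 0.15), none of them called.

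Under LPS the aged cultures differed from the young ones in 4 of the 8 tested genes, beside 29.0% of all genes. There was 1 gene higher, *Ide*, beside 14.0%, and 3 were lower, *App*, *Ncstn* and *Aph1a*, beside 15.0%. *App* was at 404 to 474 CPM in aged and 507 to 613 CPM in young LPS-treated cultures, a log2 fold change of -0.31 (SE 0.063, adjusted p = 0.000715). *Ide* was at 222 to 253 CPM in aged and 175 to 218 CPM in young LPS-treated cultures, a log2 fold change of 0.30 (SE 0.055, adjusted p = 0.000311). Neither pair of groups overlapped, and these calls held in every alternative setting run.

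*Ncstn* was at 144 to 162 CPM in aged against 170 to 191 CPM in young LPS-treated cultures, a log2 fold change of -0.20 (SE 0.047, adjusted p = 0.00223). *Aph1a* differed by -0.14 (SE 0.049, adjusted p = 0.0322) at 43.3 to 50.2 against 50.4 to 52.3 CPM. Without batch 2 neither was called (adjusted p = 0.0539 and 0.138). *Aph1a* was not called without batches 4 or 5 (adjusted p = 0.0983 and 0.166), without a filter (0.228), with the groups compared alone (0.094) or with library sizes alone (-0.06, adjusted p = 0.333) either. Not called between aged and young LPS-treated cultures were *Adam10* at 0.04 (95% interval -0.08 to 0.15), *Aplp2* at -0.07 (-0.24 to 0.11), *Psen2* at -0.04 (-0.17 to 0.09) and *Psenen* at -0.21 (-0.41 to -0.01, adjusted p = 0.115). The signs of *Aplp2* and *Psen2* turned with library sizes alone (0.02 and 0.04).

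The LPS response itself was compared between the ages by the interaction term. None of the 8 tested genes was called by edgeR's quasi-likelihood test, beside 6.39% of all genes. Without the block and with TMM none had an unadjusted p below 0.05, and DESeq2's Wald test, also without the block, called none and gave none below 0.05. *Ide* came closest with a difference of responses of 0.16 (95% interval -0.00 to 0.32, unadjusted p = 0.0555, adjusted p = 0.272). With the batch number as a block *Ide* had an unadjusted p of 0.0178, and with library sizes alone *Ide* had 0.0166 and *Adam10* 0.0408, while after adjustment neither was called (adjusted p = 0.116 for *Ide* in both settings and 0.204 for *Adam10*). The difference was -0.11 (-0.30 to 0.08) for *App*, -0.09 (-0.23 to 0.05) for *Ncstn*, 0.11 (-0.05 to 0.27) for *Adam10* and 0.12 (-0.13 to 0.37) for *Aplp2*. The intervals still hold differences of that size, so equal responses were not shown.

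Levels of the *App* family also varied between cultures of a group. In each of the 4 groups the culture with the most *App* was also the one with the most *Aplp2* and with the highest sum of the 10 microglia and macrophage markers. This was batch 1 among young and batch 3 among aged cultures, with and without LPS. In aged untreated cultures the batch 3 culture had 255 CPM of *App*, 256 CPM of *Aplp2* and a marker sum of 2989 CPM, against at most 238, 233 and 2256 CPM in the others. In young LPS-treated cultures the batch 1 culture had 613 CPM of *App*, 261 CPM of *Aplp2* and 4030 CPM of the markers, against at most 552, 215 and 3507 CPM. *Cd68* and *Csf1r* made up much of the sum, with 1288 and 973 of 3387 CPM in the young untreated culture of batch 1. Both were highest in the same cultures as the sum, but not every marker was. *Aif1* was lowest in the young untreated culture of batch 1 (9.31 against 12.3 to 16.9 CPM). *Spi1* was lowest in the aged untreated culture of batch 3 (226 against 231 to 274 CPM). The sums spanned 2412 to 3387 CPM in young and 2075 to 2989 CPM in aged untreated cultures, and 2925 to 4030 CPM and 2578 to 3573 CPM after LPS. Their part in the differences between ages was not tested.

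**Figure D4:**
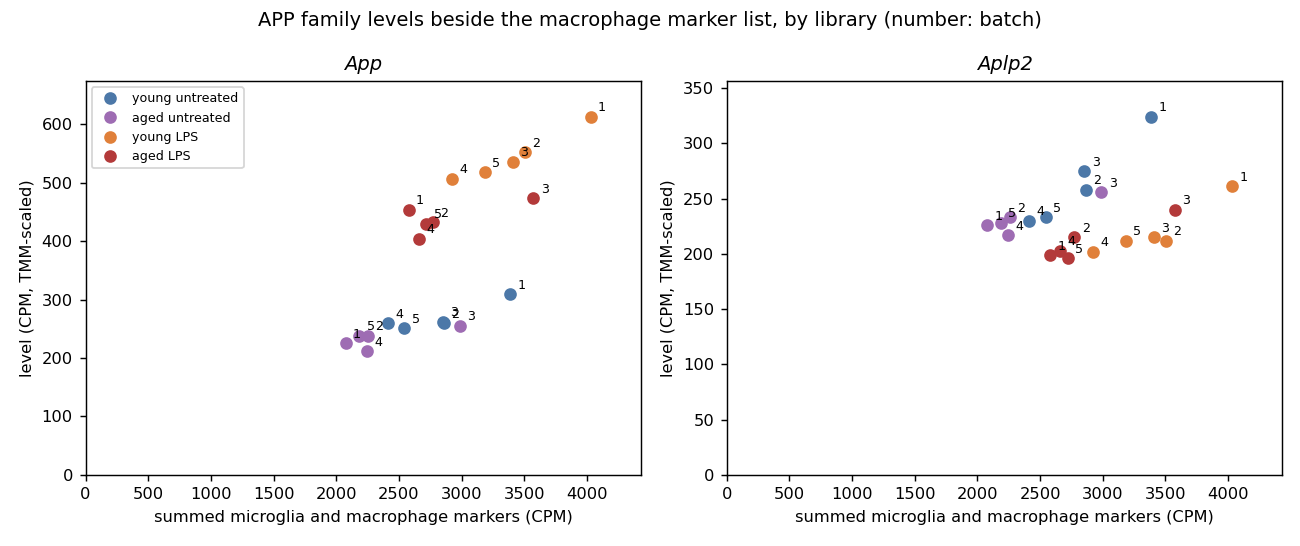
Level of *App* and *Aplp2* (CPM scaled by TMM, y axis) against the summed level of 10 microglia and macrophage markers (CPM, x axis) in each library, coloured by group and numbered by batch. Batch 1 among young and batch 3 among aged cultures lie highest on both axes within their groups, and the LPS groups lie above the untreated groups for *App* (404 to 613 against 212 to 309 CPM).

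The pattern over the 20 libraries was compared with that of the 7955 genes whose log2 CPM averaged 4 or more, leaving out genes that overlap the member. The points share batches and the LPS contrast, so these correlations are descriptions. *App* was most like *Lgals9*, which encodes galectin-9, and *Ninj1*, which encodes a protein of plasma membrane rupture (Pearson's r of log2 CPM = 0.994 and 0.993). *Ncstn* was most like *Src* and *Ahnak2* (0.984 and 0.983), *Adam10* like *Ptgr2* and *Mfsd6* (0.971 and 0.969), and *Ide* like *Xylb* and *C1galt1* (0.979 and 0.978). *Aplp2* was most like *Rnf5* and *Mboat7* (0.952 and 0.942). For the subunits with small responses the closest genes were less alike, with *Gabarapl1* and *Arpc1b* for *Psenen* (0.892 and 0.876), *Sdc3* and *Acaa1a* for *Aph1a* (0.875 and 0.87) and *Npepl1* and *Mrpl37* for *Psen2* (0.745 and 0.715).

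A further 56 genes of the pathway were listed in 5 groups, and 38 passed the filter. In young cultures LPS changed 27 of them beside 64.6% of all genes, 21 up (31.2%) and 6 down (33.5%), with a median log2 fold change of 0.16 beside -0.01 over all genes. In aged cultures it changed 26 beside 54.4%, 22 up (27.5%) and 4 down (26.9%), with a median of 0.16 beside 0.00. Under LPS 15 differed between aged and young cultures beside 29.0%, 3 higher (14.0%) and 12 lower (15.0%). Without LPS 11 differed beside 11.5%, 1 higher (3.71%) and 10 lower (7.81%). The directions here are those of the TMM scaling.

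Among the genes that mature, carry or inhibit the sheddases, 4 of 7 tested responded to LPS in young and 3 of 7 in aged cultures, beside 64.6% and 54.4% of all genes. *Rhbdf2*, which encodes iRhom2, a carrier of ADAM17 to the cell surface, rose from 33 ± 3.18 to 169 ± 10.4 CPM in young and from 28.7 ± 1.38 to 124 ± 6.08 CPM in aged cultures. Its log2 fold changes were 2.36 (adjusted p = 2.1e-18) and 2.11 (adjusted p = 1.77e-17). *Tspan14*, which encodes a tetraspanin partner of ADAM10, fell from 64.6 ± 1.9 to 29.2 ± 2.93 CPM and from 59.4 ± 3.74 to 36.3 ± 1.55 CPM. It fell by 1.14 (adjusted p = 1.95e-13) in young and by 0.71 (adjusted p = 9.72e-10) in aged cultures on the log2 scale. Of the other tetraspanin partners tested, *Tspan10* and *Tspan17* were called for LPS at neither age, and *Tspan5* fell by 0.16 in young (adjusted p = 0.0226) and differed by 0.07 in aged cultures (adjusted p = 0.35). *Tspan14* fell less in aged cultures, a difference of responses of 0.43 (adjusted p = 0.00336, and 0.0634 without batch 2). Under LPS *Tspan14* was higher in aged than in young cultures (log2 fold change 0.31, adjusted p = 0.00062, edgeR's quasi-likelihood test). *Furin*, a convertase that activates ADAM proteases, had 78.1 and 126 CPM in young and 76.2 and 92.9 CPM in aged cultures, untreated and after LPS. It rose less in the aged ones, by a difference of -0.40 (adjusted p = 0.0265), a call that was lost without batches 1, 2, 4 or 5.

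Of the other γ-secretase subunits and *App* relatives, 1 of 3 listed here was tested, *Aph1c*, and *Aplp1* was among those that did not pass the filter. *Aph1c*, an alternative APH-1 subunit of rodents, fell from 8.25 to 1.97 CPM in young and from 6.3 to 2.71 CPM in aged cultures. Its fall of 2.05 (adjusted p = 1.01e-11) in young and of 1.22 (adjusted p = 5.76e-08) in aged cultures on the log2 scale differed between the ages by 0.83 (adjusted p = 0.011, and 0.0563 to 0.0872 without batches 1, 2 or 4). Between the ages, by edgeR's quasi-likelihood test, *Aph1c* was lower in aged untreated cultures (log2 fold change -0.39, adjusted p = 0.0314). It was higher in aged than in young LPS-treated cultures (0.44, adjusted p = 0.0363). Both calls were lost without batches 1, 2, 3 or 4 and without a filter. *Aph1c* has a near-identical copy, *Aph1b*, which did not pass the filter, so its level is uncertain where reads could be split between them.

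Of the APP-binding and APP-traffic proteins, 14 of 19 tested genes responded in young and 13 of 19 in aged cultures, beside 64.6% and 54.4% of all genes, with 11 rising in each, beside 31.2% and 27.5%. *Rtn4*, which encodes a reticulon that binds BACE1, rose from 257 ± 15 to 756 ± 110 CPM in young and from 225 ± 18.2 to 503 ± 30.5 CPM in aged cultures. The difference of responses was -0.39 (adjusted p = 0.0344), but this was not called with library sizes alone (adjusted p = 0.0559) or without batches 2, 3, 4 or 5. *Apbb2*, an adaptor that binds the cytoplasmic tail of the precursor, rose from 45.6 to 117 CPM in young and from 33.6 to 91.8 CPM in aged cultures, by 1.36 and 1.45 (adjusted p = 2.41e-12 and 1.88e-12). *Itm2c* and *Itm2b* encode BRI proteins that bind the precursor and limit its cleavage. *Itm2c* fell under LPS by 0.49 in young (adjusted p = 0.00235) and by 0.54 in aged cultures (adjusted p = 0.00139). *Itm2b* was lower in aged than in young cultures, at 115 ± 21.4 against 188 ± 41.7 CPM untreated (log2 fold change -0.71, adjusted p = 0.0115, and 0.0572 and 0.103 without batches 1 and 2) and at 114 ± 26.7 against 204 ± 49.4 CPM under LPS (-0.84, adjusted p = 0.00102).

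Of the other amyloid-β-degrading proteases, 6 of 9 tested genes responded to LPS in young and 7 of 9 in aged cultures, beside 64.6% and 54.4% of all genes. Each of these rose, beside 31.2% and 27.5% of all genes, whereas *Ide* fell. *Mmp14*, a membrane-bound metalloprotease, averaged 0.604 CPM in young untreated and 0.253 CPM in aged untreated cultures, where counts were 5 to 16 and 0 to 7 per library. After LPS it had 6.51 and 3.04 CPM, a log2 fold change of 3.41 (adjusted p = 6.7e-10) and 3.57 (adjusted p = 2.59e-08), and under LPS it was lower in aged cultures (log2 fold change -1.11, adjusted p = 0.000978). *Ece1*, which encodes endothelin-converting enzyme 1, was the gene of this group that was called higher in aged untreated cultures, at 95.9 ± 5.17 against 82.6 ± 3.33 CPM (log2 fold change 0.22, adjusted p = 0.00597, and 0.0569 without batch 2). *Tspan10*, a tetraspanin partner of ADAM10, was lower in aged cultures both untreated (0.583 against 1.58 CPM, -1.43, adjusted p = 0.00206) and under LPS (0.528 against 1.58 CPM, -1.57, adjusted p = 0.000453), at counts of 4 to 32 per library.

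**Figure D5:**
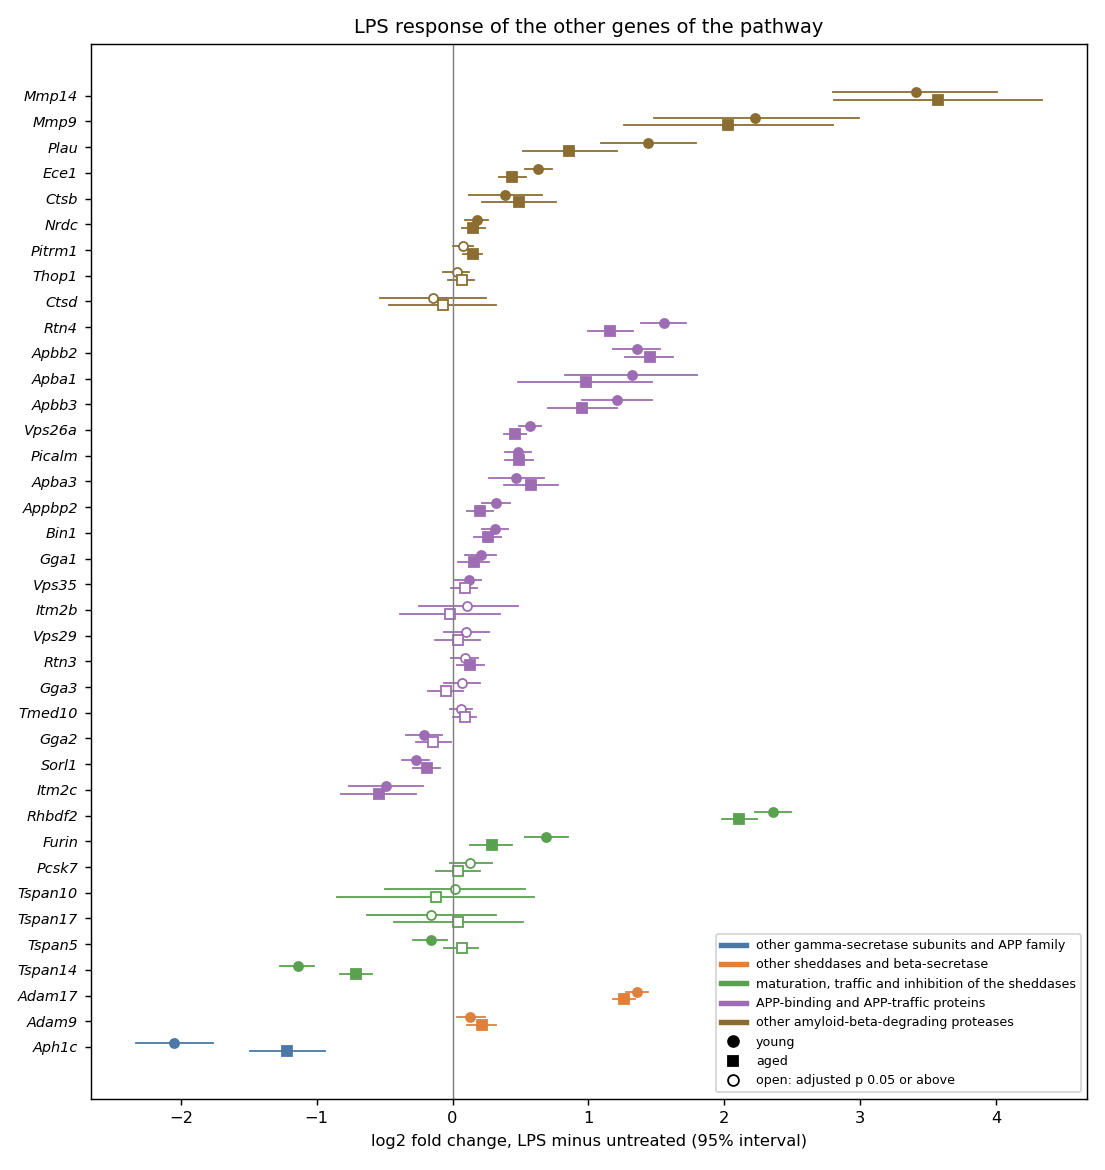
Log2 fold change between LPS-treated and untreated cultures (x axis) with 95% intervals for the 38 other pathway genes tested, in young (circles) and aged (squares) cultures, coloured by group and open where the adjusted p was 0.05 or above. *Adam17* and *Rhbdf2* lie right of 0 and *Tspan14* and *Aph1c* left of it at both ages.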

How the data were processed

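RNA from 20 BV-2 cultures was sequenced by the authors, who prepared stranded poly(A) libraries, aligned paired reads to GRCm38 with STAR 2.6.1d, counted them per gene with featureCounts 1.5.1 and deposited the raw counts without normalization. Settings for strand, overlap and multiple alignments are not given in the sources used here, and counts per gene do not separate isoforms.

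Groups and replicate numbers came from the labels. The members and gene lists were chosen with earlier results of these data known. Named in each comparison were the 9 members. From each other list they were, per contrast, the called genes with the largest rise and fall (at most 3 in each direction), and other names are marked where they appear. A gene of these lists is not reported here. Symbols, positions and lengths came from GENCODE M21 (GRCm38). A single model held the 20 libraries, with TMM scaling and the group as factor, for the 12799 genes kept by filterByExpr, and the 5 contrasts were tested by quasi-likelihood in edgeR 4.0.16 (with limma 3.58.1 under R 4.3.3). P-values were adjusted by Benjamini-Hochberg over all genes tested and called below 0.05. On simulated counts for aged against young untreated cultures, 200 of 200 genes changed 2-fold were recovered with 9 false calls among 12635 genes. The simulation gave all genes the same dispersion and had no batch effect. Its changes were larger than the differences between ages called for the members, so the recovery of such small differences was not tested.

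Alternatives were DESeq2 1.42.0, a block for the replicate number, DESeq2's size factors, library sizes alone, no filter, at least 10 counts in every library, the groups compared alone, a threshold of 0.01, each batch left out, and the young untreated culture of batch 1 left out. The labels give replicate numbers as batches, so they pair the cultures. After subtraction of the group mean, cultures with the same number correlated across genes at 0.146 on average, and those with other numbers at -0.0358. Between untreated and LPS-treated cultures the same-number mean was 0.276 in young and 0.26 in aged ones. Between the ages it was lower, at 0.111 untreated (-0.0845 to 0.253) and 0.0425 under LPS (-0.214 to 0.275). Pairs of libraries within a group differed by more than sampling of reads gives, with a chi-square of 2.35 to 25.3 per degree of freedom over 40 pairs. The paper calls the cultures independent replicates, without stating from how many stocks they came, so p-values measure the spread between these cultures.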

Additional observations from a re-analysis of the deposited data

Results flagged for a closer look

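In 6 of 80 sets of 5 cultures tested, 1 culture lay apart from the other 4 by Dixon's criterion, which chance meets in about 1 of 20. Among the members this was *App* in the young untreated culture of batch 1, at 309 CPM against 251 to 262 CPM in the others, and *Aplp2* in the young LPS-treated culture of batch 1, at 261 CPM against 202 to 215 CPM. Among the other genes named, *Itm2b* was at 152 CPM in the aged untreated culture of batch 3 (others 97.7 to 112 CPM) and *Tspan14* at 34.3 CPM in the young LPS-treated culture of batch 3 (26.8 to 28.8 CPM). In the young untreated culture of batch 5, *Ece1* was low at 76.8 CPM (83.1 to 84.7 CPM) and *Furin* at 74.6 CPM (78.4 to 79.8 CPM).

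The LPS response differed between aged and young cultures by the interaction term of edgeR's quasi-likelihood test for *Aph1c* (0.83, adjusted p = 0.011), *Tspan14* (0.43, adjusted p = 0.00336), *Furin* (-0.40, adjusted p = 0.0265) and *Rtn4* (-0.39, adjusted p = 0.0344), all on the log2 scale. None of the 8 members tested was among them.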

How the results depend on the processing

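The LPS calls of *App*, *Ncstn*, *Adam10* and *Ide* at both ages, and those of *App* and *Ide* between the ages under LPS, held in all alternatives. Of 552 member values under alternatives, 507 kept direction and call, 20 lost and 6 gained a call and 19 changed sign. Some differences between ages of about 0.2 or less on the log2 scale were called in some settings and not in others. These were *App* untreated, and *Ncstn* and *Aph1a* under LPS. The smallest difference that 5 cultures per group resolve was not tested.

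Between aged and young untreated cultures the count of 1 member became 0 at adjusted p below 0.01, with DESeq2's size factors and without a filter, and 0 to 1 with cultures left out. It was 3 with the replicate block, which gained *Psenen* and *Ide* and changed no other call of a member or a named pathway gene. With the groups compared alone it was *Ide* in place of *App*. The 11 other pathway genes called became 4 at 0.01 and 3 to 10 with a batch left out. Under LPS 2 to 5 members differed between ages with a batch left out. The 4 pathway genes with different responses became 1 at 0.01 and 0 to 4 with a batch left out. The shares of all genes called in these settings are not given here. A stricter threshold or fewer libraries can lower the calls of any gene, so these counts do not single out the genes listed.

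With library sizes alone these values changed sign. LPS responses became -0.22 (*Psen2*, young), -0.08 and -0.07 (*Aph1a*, young and aged), and -0.15 and -0.04 (*Psenen*). Differences between ages under LPS became 0.02 (*Aplp2*) and 0.04 (*Psen2*), and interactions 0.01 (*Psen2* and *Aph1a*). The response of *Psen2* in young cultures, near 0, was also -0.02 without a filter, -0.0003 with the groups compared alone and -0.04 to 0.04 with cultures left out. With cultures left out, ranges that crossed 0 were -0.13 to 0.02 (*Aplp2*) and -0.07 to 0.01 (*Psen2*) between ages under LPS, -0.04 to 0.05 (*Psen2*, between ages untreated), and interactions of -0.09 to 0.0007 (*Aph1a*) and -0.01 to 0.15 (*Psenen*). The longest transcript moved 28 of 32 group means in TPM by more than their SD. Beyond the sign changes that follow from the scaling itself, the cause was not tested.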
